A study of Mus musculus with 4 samples.

Results

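The mitochondrial chromosome of the mouse encodes 13 mRNAs, and 10 of them are described here: mt-Nd1, mt-Nd2, mt-Nd3, mt-Nd4, mt-Nd5, mt-Co1, mt-Co2, mt-Co3, mt-Cytb and mt-Atp6. They were taken by name from the 52636 gene lines of the table, where all 10 were present and all 10 passed the filter on low counts. RNA came from a mouse line labelled Hoxb8, as background a kind of line held at the myeloid progenitor stage by that homeobox factor. The 2 groups were cells carrying an empty vector (EV, 2 libraries) and cells expressing DNMT3A R882H (R882H, 2 libraries), a recurrent substitution of a DNA methyltransferase in acute myeloid leukaemia. The labels give neither the promoter of the vector nor whether the lines were clones, nor whether the replicates were grown separately. The p-values therefore cover the spread between libraries, which may be technical. The comparison addressed how the transcripts of these cells differ with the DNMT3A variant, in a series on heme synthesis and copper-dependent cell death.

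The mitochondrial genome is transcribed from both strands as long precursors. Most mRNAs on it are bordered by tRNAs, and cutting at the tRNAs releases them. Short poly(A) tails are then added, which for some mRNAs also complete the stop codon. The mRNAs encode core subunits of complex I (the Nd genes), complex III (mt-Cytb), complex IV (the Co genes) and the ATP synthase (the Atp genes), while all other subunits and the whole transcription machinery come from nuclear genes. Because the mRNAs of a strand share a precursor, their relative levels depend on processing and decay as well as on transcription.

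Libraries were made with the QuantSeq 3′ protocol, which primes at poly(A) and reads near the 3′ end. The ends of the 6 members that carried most of the counts are therefore shown first, as the last 30 bases of each annotated transcript (GENCODE M21, mm10 chromosome M, plus strand), with the bases that form the stop codon, or its first base, in capitals.
mt-Nd1: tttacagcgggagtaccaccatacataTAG
mt-Nd2: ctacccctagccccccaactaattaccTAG
mt-Co1: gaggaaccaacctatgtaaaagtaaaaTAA
mt-Nd4: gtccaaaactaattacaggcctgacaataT
mt-Nd5: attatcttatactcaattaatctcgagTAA
mt-Cytb: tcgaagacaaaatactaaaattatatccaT
Among these 6, mt-Nd4 and mt-Cytb ended in a lone T, and so did mt-Co3 among the other 4 members. The longest run of A inside a member was 8 bases, in mt-Nd2. Whether priming at internal runs of A added to any count was not tested.

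Nuclear copies of mitochondrial DNA matched 6 of the 10 members closely (at least 95% identity) up to or near their 3′ ends. On mm10 chromosome 1, the annotated pseudogenes Gm28439, Gm10222, Gm28438, Gm28437, Gm10925, Gm28661 and Gm29216 lie side by side on the minus strand between 24611535 and 24616197. Of these, Gm28661 matched 681 bases of mt-Co2, Gm10925 matched 678 bases of mt-Atp6 and Gm28437 matched 783 bases of mt-Co3, each with 100% identity. Also close were Gm28438 with mt-Nd3 (99.7% over 345 bases), Gm29216 with mt-Co1 (99.8% over 483 bases) and, on chromosome 2, Gm13339 with mt-Nd2 (96.7% over 510 bases). To show what a read of 75 bases could tell apart, the following 75 bases near the 3′ end of mt-Co2 (chrM:7619-7693) stand above the same stretch of Gm28661 (chr1:24614885-24614959, minus strand) and of Gm13341 (chr2:22587294-22587368, minus strand). Bases that differ from the mitochondrial sequence are in capitals.
mt-Co2: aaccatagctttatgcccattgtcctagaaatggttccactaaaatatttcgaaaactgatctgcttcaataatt
Gm28661: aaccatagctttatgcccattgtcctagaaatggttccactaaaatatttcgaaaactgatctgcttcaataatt
Gm13341: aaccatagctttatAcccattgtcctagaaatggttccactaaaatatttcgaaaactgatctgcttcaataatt
The stretch of mt-Co2 had 0 differences from Gm28661 and 1 from Gm13341. For contrast, the same length of mt-Cytb (chrM:15213-15287), an abundant member, is shown above its closest copy Gm11410 (chr4:80005057-80005131, plus strand), from which it differed at 5 positions.
mt-Cytb: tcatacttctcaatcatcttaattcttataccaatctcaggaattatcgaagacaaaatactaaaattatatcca
Gm11410: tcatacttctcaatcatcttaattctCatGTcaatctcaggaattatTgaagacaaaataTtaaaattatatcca

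The levels of the members fell into 2 sets. CPM below are counts scaled to TMM-adjusted library size, in the order EV replicate 1, EV replicate 2, R882H replicate 1 and R882H replicate 2. The members mt-Nd1, mt-Nd4, mt-Cytb, mt-Co1, mt-Nd2 and mt-Nd5 lay between 336 CPM and 18963 CPM in all 4 libraries. The members mt-Atp6, mt-Co2, mt-Co3 and mt-Nd3 lay between 1.59 CPM and 62.5 CPM. In these 4 low members, between 98.7% and 99.6% of the 75-base windows in the last 300 bases occurred exactly in a nuclear GENCODE transcript. In mt-Nd1, mt-Nd4, mt-Nd5 and mt-Cytb the share was 0%, and in mt-Nd2 it was 24.3%. The exception was mt-Co1, at 100% shared windows and a mean of 3658 CPM. These windows stop at the annotated end of each transcript. The extensions past that end, described below for mt-Co1 and mt-Nd5, are not in them. How reads that map to several places were treated is not stated in the labels, and the part of shared sequence in the low levels was not tested. The values of these 4 members are therefore uncertain as levels of the mRNAs. For mt-Co1, with all of these windows shared, the part of shared sequence in its level was not tested either.

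**Figure D1:**
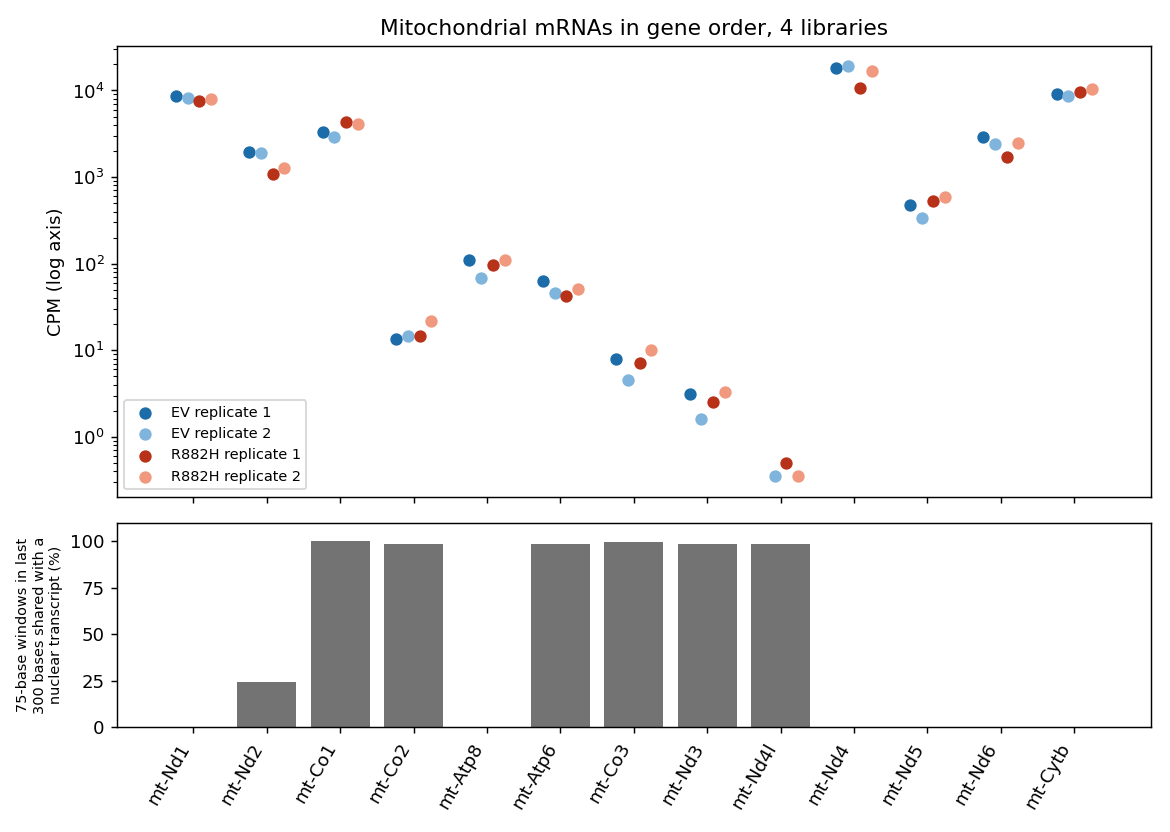
CPM of the 13 mitochondrial mRNAs in their order along the genome (upper panel, log axis, 1 point per library; mt-Nd4l had 0 counts in EV replicate 1 and no point there), above the percentage of 75-base windows in the last 300 bases of each that occur exactly in a nuclear transcript (lower panel; mt-Nd4l and mt-Atp8 are shorter and were used whole). The 4 members mt-Co2, mt-Atp6, mt-Co3 and mt-Nd3 are low and have shared windows near 100%, while mt-Co1 has shared windows and a high level. The windows stop at the annotated end of each transcript.

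Ordered by mean CPM over the 4 libraries, mt-Nd4 stood first with 16195 CPM, followed by mt-Cytb (9406 CPM), mt-Nd1 (8098 CPM), mt-Co1 (3658 CPM), mt-Nd2 (1550 CPM), mt-Nd5 (483 CPM), mt-Atp6 (50.3 CPM), mt-Co2 (16.1 CPM), mt-Co3 (7.46 CPM) and mt-Nd3 (2.64 CPM). The ranges of neighbours in this order over the 4 libraries did not overlap, except those of mt-Cytb and mt-Nd1. Within each library mt-Cytb was above mt-Nd1. Per kilobase of gene the order of that pair turned, with 8462 CPM per kb for mt-Nd1 and 8222 CPM per kb for mt-Cytb. The other 8 members kept their places per kilobase. Tags at the 3′ end do not scale with length, so the values per kilobase carry the gene length and are a description only.

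Together the 10 members held 4.16%, 4.14%, 3.42% and 4.02% of all counts, of totals between 5470330 and 5921985. In these shares of unscaled totals the groups did not overlap. They stood at 4.15% ± 0.0181 in EV and 3.72% ± 0.420 in R882H (mean ± SD, n = 2), a difference of −0.43 percentage points. Without R882H replicate 1 it was −0.14 points, and without R882H replicate 2 it was −0.73 points. On the TMM-adjusted scale the members summed to 41780, 40951, 33909 and 41227 CPM. On that scale the groups overlapped, with R882H replicate 2 between the EV libraries. With 2 libraries against 2, a two-sided exact permutation test cannot give a p below 0.333. The 95% Wilson interval of each share was narrow (3.41% to 3.44% in R882H replicate 1) and covers counting error only. Here as below, a change in mitochondria per cell and a change in transcripts per mitochondrion could not be told apart, whether or not either occurred.

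Of the 10 members, 2 rose and 1 fell in R882H, and 7 did not pass the test (edgeR quasi-likelihood test, Benjamini-Hochberg adjusted over 11444 genes at 0.05). Among all tested genes 38.8% were called, 19.3% higher and 19.4% lower, so 3 called members of 10 is near the background. The median log2 fold change of the members was 0.24, against 0.01 over all tested genes. It was 0.03 over the 6 abundant members and 0.34 over the 4 low ones, whose levels are uncertain. Both R882H libraries lay above both EV libraries for mt-Co1, mt-Nd5 and mt-Cytb (3 members, against 35.2% of all tested genes), and below them for mt-Nd1, mt-Nd2 and mt-Nd4 (3 members, against 33.9%).

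**Figure D2:**
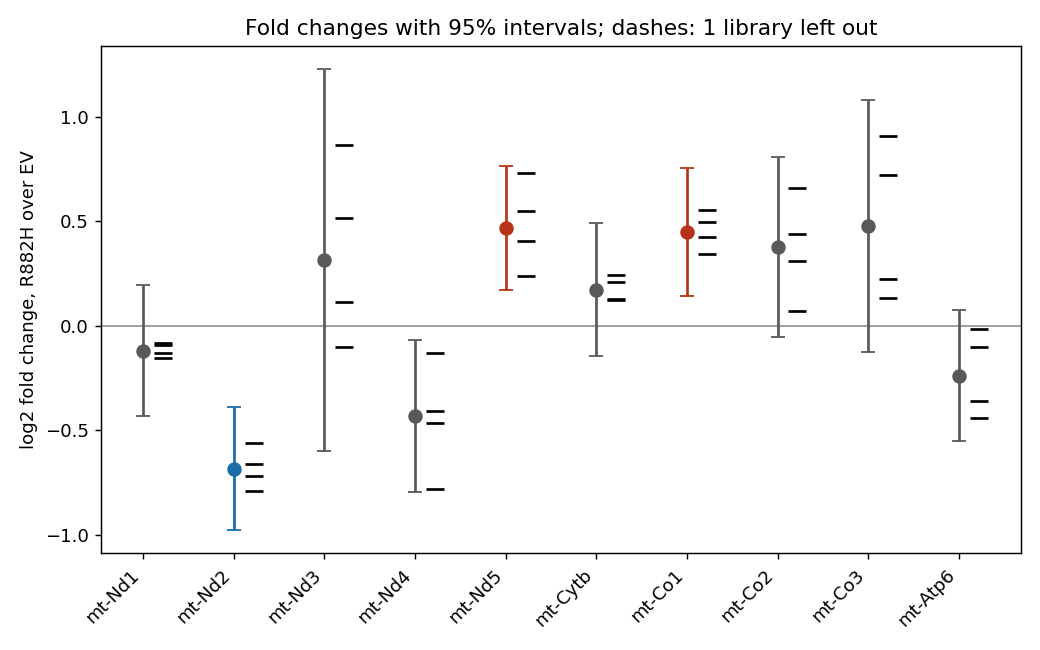
Log2 fold change (R882H over EV) of the 10 members with its 95% interval from the edgeR fit over 4 libraries (points and bars; red called higher, blue called lower, grey not called), and the value with each library left out in turn (black dashes). mt-Nd5 and mt-Co1 lie above 0 and mt-Nd2 lies below 0, and the dashes of mt-Nd4 spread from −0.78 to −0.13.

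Complex I is the large NADH dehydrogenase, and its 5 members went in different directions. The transcript of mt-Nd2, a membrane arm subunit (ENSMUSG00000064345, chromosome M, 3914 to 4951), had 1948, 1873, 1095 and 1284 CPM. Both R882H libraries were low and the groups did not overlap. The log2 fold change of mt-Nd2 was −0.68 ± 0.14 (SE; edgeR adjusted p = 0.000278). The call ended without R882H replicate 1 (−0.56, edgeR adjusted p = 0.0552). Part of the 3′ end of mt-Nd2 is also found in Gm13339, which held 65 counts in all 4 libraries.

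The most abundant member, mt-Nd4 (ENSMUSG00000064363, chromosome M, 10167 to 11544), had 18244, 18963, 10704 and 16870 CPM. Both EV libraries were higher than both R882H libraries, but R882H replicate 1 stood far below R882H replicate 2. mt-Nd4 was not called, at −0.43 ± 0.18 (edgeR adjusted p = 0.0538). It had −0.78 without R882H replicate 2 (adjusted p = 0.0118) and −0.13 without R882H replicate 1 (adjusted p = 0.755), and with library size only as scaling it was −0.46 with an adjusted p of 0.0204, all by edgeR. The 2 R882H libraries thus differed more from each other in mt-Nd4 than R882H replicate 2 differed from EV.

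In mt-Nd5 (ENSMUSG00000064367, chromosome M, 11742 to 13565), counts gave 474, 336, 532 and 589 CPM. The R882H libraries were the higher pair, by a small margin over EV replicate 1. The log2 fold change was 0.47 ± 0.15 (edgeR adjusted p = 0.0111). The call ended without EV replicate 2 (0.24, edgeR adjusted p = 0.156) and without R882H replicate 2 (0.40, adjusted p = 0.131), and the value was 0.73 without EV replicate 1. The mt-Nd5 gene overlaps mt-Nd6 on the opposite strand by its last bases, and the strand setting of the counting is not stated. The mt-Nd6 line (chromosome M, 13552 to 14070, minus strand) had 2917, 2432, 1703 and 2469 CPM and was not called (−0.36 ± 0.16, edgeR adjusted p = 0.0762). Without R882H replicate 2 it was −0.64 (edgeR adjusted p = 0.0268), and without R882H replicate 1 it was −0.10 (adjusted p = 0.786). Without EV replicate 1 it was −0.23 (edgeR adjusted p = 0.365), and with library size only it was −0.38 (adjusted p = 0.0354).

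As background, the mature mt-Nd5 mRNA of mammals extends past its coding end across the region antisense to mt-Nd6. Without strand, tags from that extension and tags of mt-Nd6 cannot be told apart. When mt-Nd5 was summed with the mt-Nd6 and mt-Te lines, an alternative chosen after seeing the data, its log2 fold change turned to −0.17 (edgeR adjusted p = 0.429). The direction for mt-Nd5 therefore holds for tags inside its annotated gene alone.

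For the remaining complex I members, mt-Nd1 (ENSMUSG00000064341, chromosome M, 2751 to 3707) had 8603, 8260, 7623 and 7908 CPM. The EV libraries were the higher pair by a narrow margin, and the log2 fold change was −0.12 ± 0.15 (edgeR adjusted p = 0.576, 95% interval −0.43 to 0.19). The low member mt-Nd3 (chromosome M, 9459 to 9806) had counts of 17, 9, 15 and 19. These overlapped between groups, at 0.31 ± 0.45 (edgeR adjusted p = 0.616) with a 95% interval of −0.60 to 1.23, which leaves a change of 2-fold in R882H within the interval. Summed with its copy Gm28438, which had 15, 21, 18 and 47 counts, mt-Nd3 was at 0.61 (adjusted p = 0.126), and without EV replicate 2 its sign turned (−0.10).

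Complex III has a single mitochondrial subunit, cytochrome b, encoded by mt-Cytb (ENSMUSG00000064370, chromosome M, 14145 to 15288). It had 9110, 8581, 9564 and 10370 CPM. Both R882H libraries were higher, and the means differed by 1121 CPM, against SDs of 374 CPM in EV and 570 CPM in R882H (n = 2). mt-Cytb was not called. The log2 fold change of mt-Cytb was 0.17 ± 0.16 (edgeR adjusted p = 0.403, 95% interval −0.14 to 0.49).

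Complex IV is cytochrome c oxidase, whose catalytic subunit holds the heme a and copper centres and is encoded by mt-Co1 (ENSMUSG00000064351, chromosome M, 5328 to 6872). mt-Co1 had 3315, 2871, 4325 and 4121 CPM. The groups did not overlap. The log2 fold change was 0.45 ± 0.15 (edgeR adjusted p = 0.0169), and the call ended without R882H replicate 1 (0.43, adjusted p = 0.160) and without R882H replicate 2 (0.50, adjusted p = 0.0887).

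As background, the mt-Co1 mRNA carries a short extension antisense to the tRNA gene mt-Ts1, whose line covers chromosome M, 6870 to 6938, on the minus strand. That line held 26971, 26315, 33531 and 31769 counts, which is 1.49, 1.62, 1.30 and 1.35 times the counts of mt-Co1. It was not called (0.22 ± 0.15, edgeR adjusted p = 0.251). Summed with it, mt-Co1 was at 0.32 and lost its call (edgeR adjusted p = 0.108). Since tags that span both lines may have been counted for each, that sum can count a tag more than once.

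The other complex IV members were low. mt-Co2, which holds a copper centre (chromosome M, 7013 to 7696), had counts of 73, 83, 87 and 125. The groups met at replicate level, with 13.4, 14.7, 14.6 and 21.9 CPM, and the log2 fold change was 0.38 ± 0.21 (edgeR adjusted p = 0.161, 95% interval −0.05 to 0.81). Without R882H replicate 1 it was 0.66 (edgeR adjusted p = 0.0379), and without R882H replicate 2 it was 0.07 (adjusted p = 0.886). Its copy Gm13341 (95.9% identity) held 186, 199, 180 and 159 counts, more than the mt-Co2 line in every library. Gm28661 held 45, 36, 33 and 35 counts. Summed with both copies, mt-Co2 turned sign (−0.08, edgeR adjusted p = 0.703). mt-Co3 (chromosome M, 8607 to 9390) had counts of 43, 26, 43 and 58, which overlapped between groups, at 0.48 ± 0.30 (edgeR adjusted p = 0.207, 95% interval −0.13 to 1.08). It was 0.91 without EV replicate 1 and 0.13 without EV replicate 2, and neither was called. Its copy Gm28437 held 145, 104, 148 and 149 counts, more than the mt-Co3 line in every library, and the sum was at 0.25 (adjusted p = 0.277).

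Complex V, the ATP synthase, has mt-Atp6 in its proton channel (chromosome M, 7927 to 8607). mt-Atp6 had counts of 341, 263, 251 and 287, and EV replicate 1 was high while the others were close together. The log2 fold change was −0.24 ± 0.15 (edgeR adjusted p = 0.229, 95% interval −0.55 to 0.08). It was −0.44 without EV replicate 2 (adjusted p = 0.0364) and −0.01 without EV replicate 1. The copy Gm10925 had 293, 189, 293 and 292 counts, and the summed value was −0.02 (adjusted p = 0.911). The gene overlaps mt-Atp8, which had 598, 385, 572 and 631 counts and was not called (0.22 ± 0.16, edgeR adjusted p = 0.302). mt-Atp8 reached 0.60 without EV replicate 1 (adjusted p = 0.00327) and −0.09 without EV replicate 2. Summed with mt-Atp8, mt-Atp6 was at 0.06 (adjusted p = 0.786).

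Ratios within a library need no scaling between libraries, and are given as a description of the same counts. The first sets a member called higher against the one called lower. For each count of mt-Nd2 there were 1.70, 1.53, 3.95 and 3.21 counts of mt-Co1. The R882H libraries had the higher ratio, with means of 1.62 in EV and 3.58 in R882H, a factor of 2.21. Per count of mt-Nd1 there were 1.06, 1.04, 1.25 and 1.31 counts of mt-Cytb, again higher in both R882H libraries, by a factor of 1.22. Per count of mt-Nd1 there were 0.226, 0.227, 0.144 and 0.162 counts of mt-Nd2, so that the EV libraries were the high pair. For mt-Nd4 the ratio to mt-Nd1 was 2.12, 2.30, 1.40 and 2.13, and the groups overlapped. These ratios were not tested, and they restate the fold changes given above without scaling.

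**Figure D3:**
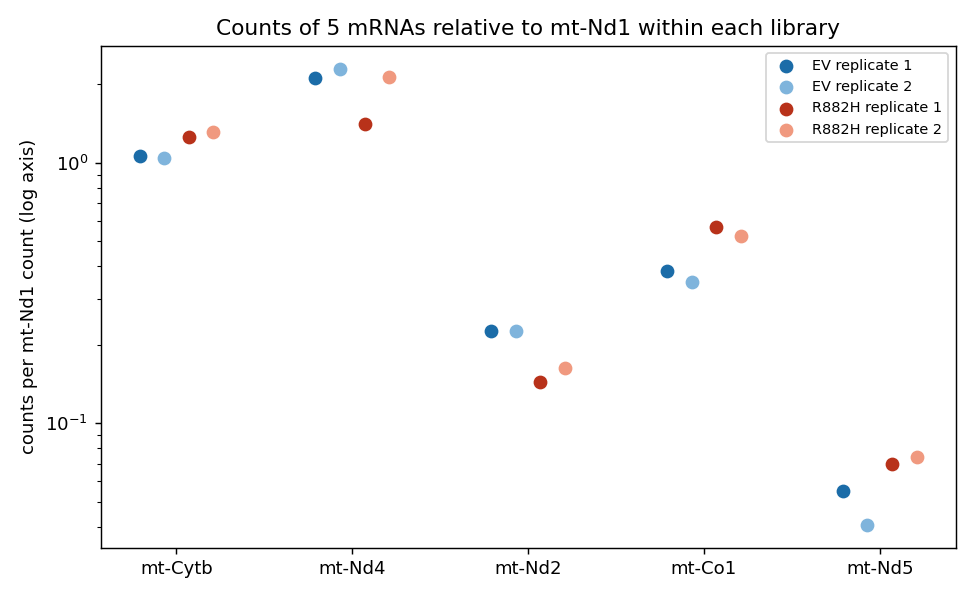
Counts of 5 members per count of mt-Nd1 within each library (log axis, 1 point per library). The R882H points lie above the EV points for mt-Cytb, mt-Co1 and mt-Nd5 and below them for mt-Nd2, and for mt-Nd4 R882H replicate 1 stands apart at 1.40.

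As shares of the 10 members' counts, mt-Nd4 took 43.7% and 46.3% in EV and 31.6% and 40.9% in R882H. mt-Cytb took 21.8% and 21.0% in EV and 28.2% and 25.2% in R882H. mt-Co1 took 7.93% and 7.01% in EV and 12.8% and 10.0% in R882H. Together mt-Nd4, mt-Cytb and mt-Nd1 made up 86.1%, 87.4%, 82.2% and 85.3% of the pool. Every share depends on all others, and in R882H replicate 1 the low mt-Nd4 raises the rest.

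The mitochondrial rRNAs, which have short tails and are captured only in part by priming at poly(A), were not called. mt-Rnr1 had 567, 433, 511 and 503 CPM (0.02 ± 0.14, edgeR adjusted p = 0.930), with −0.17 without EV replicate 2. mt-Rnr2 had 820, 576, 957 and 791 CPM (0.32 ± 0.15, adjusted p = 0.0928), with 0.60 without EV replicate 1 (adjusted p = 0.00227) and 0.09 without EV replicate 2 (adjusted p = 0.65). The short mRNA mt-Nd4l, another complex I subunit, had counts of 0, 2, 3 and 2 and was not tested. A count of 0 allows up to 3 counts, or 0.548 CPM in EV replicate 1.

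Nuclear genes that make and use these mRNAs were read from the same fit in 11 lists by role. Of 160 genes listed, 157 were matched to the table and 152 were tested. Of these, 22 rose and 25 fell, or 30.9% called, against 38.8% of all tested genes. By direction, 19.3% of all tested genes were called higher and 19.4% lower, the background for each list below. That background is of the edgeR fit with all 4 libraries. All tested genes called numbered 4435 in it, 2716 in DESeq2 and fewer than 4435 with any 1 library left out. Without EV replicate 2 the count that rose was 10, without R882H replicate 1 it was 11, without R882H replicate 2 it was 14 and in DESeq2 it was 11. The count that fell was 12 without R882H replicate 1 and 16 without R882H replicate 2.

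**Figure D4:**
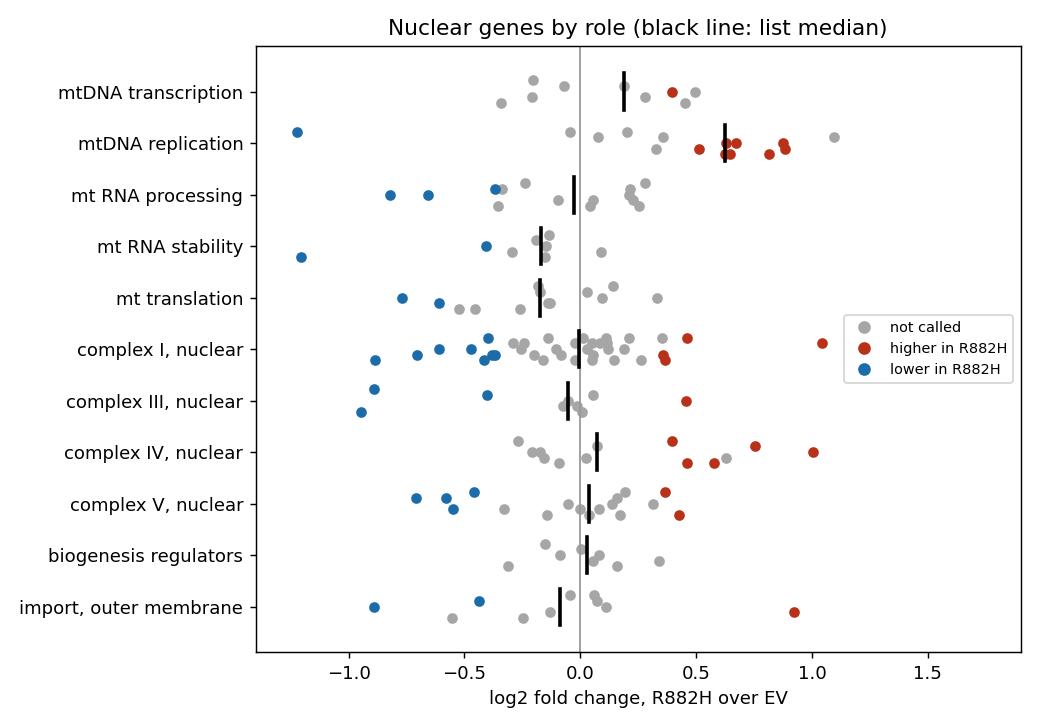
Log2 fold change (R882H over EV) of the tested nuclear genes in 11 lists by role, 1 point per gene (red called higher, blue called lower, grey not called) with the list median as a black line. Genes of mtDNA replication lie mostly above 0, with a median of 0.63. The called genes of RNA processing (3 of 14), RNA stability (2 of 8) and translation (2 of 13) lie below 0. Among all tested genes 19.3% were called higher and 19.4% lower. In DESeq2 1 gene of each of these lists (processing, stability and translation) was called lower.

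Of 9 transcription genes, 1 rose and none fell (median log2 fold change 0.19). Tfam, which packages mtDNA and starts its transcription, had 65.7, 49.2, 79.8 and 71.1 CPM. Both R882H libraries were higher, at 0.39 ± 0.14 (edgeR adjusted p = 0.0282). The Tfam call ended without EV replicate 2 (0.20, adjusted p = 0.324), without R882H replicate 1 (0.32, adjusted p = 0.221) and in DESeq2 (adjusted p = 0.178). The mitochondrial RNA polymerase gene Polrmt had −0.34 ± 0.18 (edgeR adjusted p = 0.127), the initiation factor Tfb2m had −0.07 ± 0.33 (adjusted p = 0.885) and the elongation factor Tefm had 0.28 ± 0.23 (adjusted p = 0.356). The sign for Tefm turned without EV replicate 2 (−0.0077).

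Of 15 genes of mtDNA replication and its nucleotide supply, 8 rose and 1 fell, against 19.3% and 19.4% of all tested genes. With 1 library left out 4 to 6 of them rose, and 3 did in DESeq2. Ssbp1, the single-strand binding protein of mtDNA, had 129, 90.9, 193 and 212 CPM, with both R882H libraries well above EV (0.88 ± 0.14, edgeR adjusted p = 7.64e-06). The nuclease gene Mgme1 (0.87 ± 0.18) and the nucleotide carrier gene Slc25a36 (0.82 ± 0.17) also rose, and the related carrier gene Slc25a33 fell (−1.22 ± 0.23). The exons of Mgme1 overlap Snx5. The polymerase gene Polg had 0.20 ± 0.17 and the helicase gene Twnk −0.04 ± 0.21, and neither was called. Exons of Polg overlap Fanci, and those of Twnk overlap Mrpl43. Twnk stood at 0.00028 without R882H replicate 2.

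Of 14 tested RNA processing genes, 3 fell and none rose. Hsd17b10, a subunit of the RNase P that cuts at the 5′ ends of the tRNAs, had 321, 286, 168 and 175 CPM, with both R882H libraries low (−0.82 ± 0.13, edgeR adjusted p = 5.80e-06). Ptcd1 (−0.37 ± 0.13) and Fastkd1 (−0.66 ± 0.25) fell too. Both lost the call in DESeq2 (adjusted p = 0.120 and 0.235) and without either R882H library, and also without EV replicate 1 for Ptcd1 and without EV replicate 2 for Fastkd1. Exons of Ptcd1 overlap Bud31.

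Of 8 RNA stability genes, 2 fell and none rose. Lrpprc, which with Slirp binds and protects mitochondrial mRNAs, had 416, 417, 122 and 239 CPM. Both R882H libraries were low and differed from each other by a wide margin. The log2 fold change of Lrpprc was −1.21 ± 0.28 (edgeR adjusted p = 0.0132). The value stayed at −1.21 without either EV library, but the call ended (edgeR adjusted p = 0.351 and 0.424). It was −0.79 without R882H replicate 1 and −1.75 without R882H replicate 2. The partner Slirp had −0.15 ± 0.14 and was not called with all libraries. It was −0.34 without EV replicate 2 (adjusted p = 0.0408) and 0.05 without EV replicate 1. Tbrg4 fell (−0.40 ± 0.14) and lost its call without EV replicate 2 (−0.21), without each R882H library and in DESeq2. The poly(A) polymerase gene Mtpap (0.09 ± 0.17), the helicase gene Supv3l1 (−0.29 ± 0.16) and the exonuclease gene Pnpt1 (−0.19 ± 0.18) were not called, and Mtpap turned to −0.11 without EV replicate 1.

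Of 13 translation genes, Mtif3 (−0.61 ± 0.13) and Tufm (−0.77 ± 0.20) fell and none rose. Tufm had an adjusted p of 0.0513 in DESeq2, and the exons of Mtif3 overlap Gtf3a. None of the 8 tested biogenesis regulators was called by edgeR or by DESeq2, and 0 had an unadjusted edgeR p under 0.05 (median 0.03, range −0.31 to 0.34), and Ppargc1a had no counts. Of 10 genes of import and the outer membrane, Timm44 rose (0.92 ± 0.13), Timm50 (−0.89 ± 0.14) and Vdac2 (−0.44 ± 0.13) fell, and Vdac2, whose exons overlap Comtd1, lost its call without either R882H library.

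Nuclear subunits that assemble with the members moved both ways as well, beside 19.3% of all tested genes called higher and 19.4% lower. In complex I, 4 of 36 rose and 8 fell (median 0.00), among them Ndufa6 (1.04 ± 0.17) and Ndufb7 (−0.89 ± 0.13). In complex III, 1 of 9 rose and 3 fell, led by Cyc1 (−0.95 ± 0.13), the cytochrome c1 that works beside the product of mt-Cytb, and Uqcrc1 (−0.89 ± 0.14). In complex IV, 5 of 13 tested genes rose and none fell, led by Ndufa4 (1.003 ± 0.13) and Cox7a2l (0.76 ± 0.14). In complex V, 2 of 17 rose and 4 fell, led by Atp5g3 (−0.71 ± 0.14). These counts moved with single libraries, and so did the count of all tested genes called. In complex V, 0 rose and 1 fell without R882H replicate 1, while 5 rose and 5 fell without EV replicate 1. Without EV replicate 2 there were 0 and 5, and without R882H replicate 2 there were 0 and 3. In complex I, 1 rose and 3 fell without R882H replicate 1, 2 rose and 4 fell without R882H replicate 2, 10 rose and 6 fell without EV replicate 1, and 1 rose and 11 fell without EV replicate 2. In complex III, 0 rose without EV replicate 2 or R882H replicate 1, and 2 rose without EV replicate 1. In complex IV, 3 fell without EV replicate 2, and 3 rose without R882H replicate 2.

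The nuclear genes whose profile over the 4 libraries lay nearest to the mean centred log2 profile of the members were Cnih4, Taf5, Stap1, Cep295 and Atpaf1, by Euclidean distance among 8479 genes of at least 10 CPM. That profile was 0.10, −0.19, −0.10 and 0.19, and it gave the low members, whose levels are uncertain, the same weight as the abundant ones. It differs from mt-Nd4, mt-Nd1 and mt-Nd2, which were higher in both EV libraries. Distances ran from 0.03 for Cnih4 to 0.04 for Atpaf1. Cnih4 had 180, 146, 158 and 187 CPM, with R882H replicate 2 and EV replicate 1 high. With 4 libraries this is a description only, and Cep295 contains exons that match mt-Nd1, mt-Nd2 and mt-Co1 at 74.1% to 77.1% identity.

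Other features of the libraries moved with the groups. As background for the counts of called genes below, 38.8% of all tested genes were called, 19.3% higher and 19.4% lower. The Y-linked genes Ddx3y and Eif2s3y had 0.177 ± 0.250 and 0.0917 ± 0.130 CPM in EV and 9.04 ± 2.60 and 4.72 ± 0.524 CPM in R882H, while Xist had 261 ± 10.2 and 290 ± 35.1 CPM. A difference in the origin of the cells and the DNMT3A variant cannot be told apart. Of 12 myeloid progenitor markers all were tested, 4 rose and 1 fell, with a summed level of 3390 to 3440 CPM in EV and 5271 to 5311 CPM in R882H. Mpo alone rose by 1209 CPM, from 32.7 to 1242 CPM. Kit (1.55 ± 0.17), Flt3 (0.65 ± 0.14) and Ctsg (0.61 ± 0.14) rose as well, while Cebpa fell (−0.74 ± 0.14). Cd34, Prtn3, Spi1, Elane, Csf1r, Csf3r and Ptprc were not called. Of 5 B cell markers 3 were tested and rose, with summed levels of 32.8 to 33.2 CPM in EV and 86.0 to 94.4 CPM in R882H. Of 4 mast cell and basophil markers 2 were tested and rose (42.0 to 44.1 CPM against 334 to 357 CPM), mostly through Cpa3 (22.5 and 300.04 CPM), with Fcer1a at 0. The T cell markers Cd3e, Cd3g, Cd4 and Cd8a and all 4 fibroblast markers had no counts. The fifth T cell marker, Lck, fell, with 36, 47, 7 and 5 counts. Of 6 megakaryocyte markers 3 were tested, with Itga2b higher (1.35 ± 0.38) and Ppbp lower (108, 130, 5 and 0 counts), and summed levels of 26.8 to 30.5 CPM in EV and 12.5 CPM in both R882H libraries. Of 7 erythroid markers 2 were tested and not called. The nuclear RNAs Neat1 (1.33 ± 0.17) and Kcnq1ot1 (0.67 ± 0.14) rose, and Malat1 was not called (105, 135, 123 and 86.5 CPM; −0.19 ± 0.15). R882H replicate 1 had the highest summed level of the nuclear-retained list (379 CPM, against 210, 233 and 261 CPM). Of 10 stress and immediate early genes 7 were tested, of which Fos (2.63 ± 0.57), Jun (1.09 ± 0.33) and Dnajb1 (0.67 ± 0.14) rose and Egr1 fell (−0.76 ± 0.30). The part of any of these in the members' values was not tested.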

How the data were processed

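The authors deposited raw counts per Ensembl gene, 1 column per library, for 4 QuantSeq libraries. The tools named, per the submitters' processing notes, were HISAT2 (2.0.4), featureCounts in Subread (2.0.0), cutadapt (1.14), bcl2fastq (2.17.1.14), limma (3.48.3) and edgeR (3.34.0), with the build mm10 and no settings. Which annotation and strand setting were used, and how multi-mapping reads were handled, is not given in the sources used here. Symbols, positions and sequences come from GENCODE M21 (same assembly). Members and lists were chosen with earlier results of these data known.

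Tests across all genes used R 4.3.3 and its edgeR package, 4.0.16 (filterByExpr, TMM, robust glmQLFit, glmQLFTest, Benjamini-Hochberg, threshold 0.05), which was tested on simulated counts. Values are means ± SD (n = 2), and SE is the absolute log2 fold change over the root of F. Near-identical copies had at least 95% identity over 200 bases by blastn among annotated transcripts; sequence between them was not searched. Named were all members, the other mitochondrial mRNAs and rRNAs, 11 fixed regulators, up to 4 called genes a list by p with up to 2 of opposite sign, and 5 genes by likeness. Alternatives were other scalings, filters, tools, a replicate block and leaving out libraries. Counts within a group differed beyond sampling noise (chi-square per degree of freedom 6.91 in EV and 4.61 in R882H).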

Additional observations from a re-analysis of the deposited data

How the results depend on the processing

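Of the members, 2 were called higher and 1 lower. With library size only, 2 were called lower, and after summing members with adjoining lines (chosen after seeing the data) 0 were called higher by edgeR. Leaving out 1 library gave 0 to 2 called higher and 0 to 2 called lower. All tested genes called numbered 4435, 2716 in DESeq2 and 2954 to 4233 with 1 library left out. Nuclear genes of the 11 lists called higher numbered 22, 11 in DESeq2 and 10 to 28 with 1 library left out. Those called lower numbered 25, and 12 to 30 with 1 left out. The difference in the members' share of counts was −0.43 percentage points. With 1 library left out, log2 fold changes turned sign and ranged from −0.101 to 0.862 for mt-Nd3, −0.0927 to 0.597 for mt-Atp8, −0.168 to 0.221 for mt-Rnr1, −0.00772 to 0.621 for Tefm, −0.0598 to 0.000278 for Twnk, −0.339 to 0.0466 for Slirp and −0.114 to 0.322 for Mtpap. They also turned with summed copies for mt-Co2 (−0.0758) and with summed adjoining lines for mt-Nd5 (−0.17) and mt-Atp6 (0.0609). The cause was not tested. With the replicate block 2 members were called higher and 1 lower, and the block changed no call among the members; same-numbered libraries did not deviate together (r = 0.004 across genes). Counts below 20 limit mt-Nd3 and mt-Nd4l.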

Other observations

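Lines of mitochondrial tRNA genes are described here, chosen after their values were seen. Of 22 such lines, 16 were tested, 9 rose and none fell (edgeR, median log2 fold change 0.88), against 19.3% called higher among all tested genes. They lie on both strands, with 4 of 8 tested lines higher on the plus strand and 5 of 8 on the minus strand. The line of mt-Tq, between mt-Nd1 and mt-Nd2 on the minus strand, had counts of 124, 102, 313 and 269 (1.29 ± 0.17, edgeR adjusted p = 1.70e-07). The line of mt-Ty, just before mt-Co1, had 214, 103, 507 and 487 counts (1.57 ± 0.29, adjusted p = 0.00481), and its neighbour mt-Tc had 89, 37, 250 and 189 (1.72 ± 0.30). Without EV replicate 1 these were 2.22 for mt-Ty and 2.51 for mt-Tc, and without EV replicate 2 they were 1.11 and 1.20, each called by edgeR. On the plus strand mt-Tl1, before mt-Nd1, had 176, 101, 327 and 276 counts (1.05 ± 0.19, adjusted p = 6.76e-05), and mt-Tt, after mt-Cytb, had 53, 48, 114 and 91 (0.95 ± 0.22). The R882H libraries were the high pair in each of these 5.

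The tRNA lines that overlap the end of mt-Nd1 or mt-Co1 were not called. The mt-Ti line, which overlaps the end of mt-Nd1, had 4704, 5071, 4197 and 4680 counts (−0.21 ± 0.14, edgeR adjusted p = 0.251), and the values of mt-Ts1 at mt-Co1 are given above. What the tags in the other tRNA lines come from (uncut precursors, antisense RNA or tailed fragments) was not tested, since the table gives no strand and no position of a read. With 1 library left out, 7 to 9 of these lines were called higher by edgeR, and 6 were in DESeq2.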
